A study of Mus musculus with 4 samples.

Results

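Chromatin remodelers and histone methylation enzymes were followed in RNA that an antibody against YTHDF2 pulled down from the newborn mouse retina. YTHDF2 is a cytoplasmic reader protein that binds N6-methyladenosine (m6A) in mRNA and is known for speeding the decay of the mRNAs it holds. The members were chosen by gene symbol, with earlier results of these data known, through a rule that uses no measured value: symbols starting with Kmt, Kdm or Setd and a digit, Chd1 to Chd9, symbols starting with Smarca to Smarce or with Arid1 to Arid5, and Ezh1, Ezh2, Eed, Suz12, Ehmt1, Ehmt2, Nsd1, Dot1l, Crebbp, Ep300, Ino80, Srcap and Ep400. This rule took 83 of the 52550 genes in the count table, of which 78 had enough counts to be tested among 13632 genes in all. The 5 members that were too low to test were Arid3c, with 6 and 7 input counts against 0 and 7 in the RIP libraries, Smarca1, with 6 and 23 against 3 and 8, Kdm4dl, with 3 counts in RIP replicate 1 and 0 elsewhere, Kdm6bos, with 5 counts in each of input replicate 1 and RIP replicate 2 and 0 elsewhere, and Smarca5-ps, with 3 and 5 against 1 and 1.

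Retinas of wild type C57BL/6 mice at postnatal day 0 were dissociated with papain, and each of 2 biological replicates gave RNA taken before the pulldown (input) and RNA recovered with anti-YTHDF2 (RIP). All 4 libraries therefore share strain, genotype, age and tissue, and no animal carried a transgene or received a treatment according to the labels. How many pups went into a replicate is not given in the sources used here, and a control IgG pulldown that the methods mention was not analysed here. The inputs held 39499994 and 36236531 counts and the RIP libraries 19530226 and 24903212, and the 83 members took between 0.0890% and 0.160% of them, with a median member count between 186 and 349.

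Enzymes of this kind set how tightly DNA is packed. Methyltransferases write methyl groups onto histone lysines and demethylases erase them, and depending on the lysine the mark goes with active or with silent genes. Remodelers of the CHD, SWI/SNF, ISWI and INO80 families burn ATP to slide, evict or exchange nucleosomes, mostly as one engine subunit within a large complex whose other subunits steer it. In the retina such complexes are known for the passage from dividing progenitors to neurons, where Ezh2 and Brg1 (Smarca4) have long been studied and where SWI/SNF complexes swap progenitor subunits for neuronal ones.

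An m6A is laid down mostly within a short consensus whose core is often GGACT, and the marks gather around stop codons. The annotated transcripts of the 9 members called enriched or depleted in the RIP are shown here around the GGACT nearest to the stop codon, to show that transcripts of both kinds hold the core. Sequences are written 5′ to 3′ on the transcript strand from GENCODE M21 (GRCm38), with GGACT in capitals and 10 bases on each side, and positions are those of the A of the core relative to the last coding base. The first 4 lines are the enriched members and the other lines the depleted members.
Kdm4a: tagtgagtcaGGACTgtctccaact
Ehmt1: cagagacctgGGACTccatgttgca
Arid3b: gctgtgtcagGGACTttggcaggcc
Arid2: tcgtcttccgGGACTtcacagatga
Kmt5a: tttccaaggtGGACTtgaacagatg
Ezh2: agagaagcagGGACTgaaactgggg
Kmt2e: gcattaaaatGGACTccaataacat
Smarcb1: gccatcctgaGGACTggggtaggag
Smarcd3: cctgggctctGGACTccccctctcg

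The Kdm4a window lies in coding sequence at position -346, on the minus strand within chr4:118138970-118142387, a span that includes an intron. Ehmt1 has its window in the 3′ UTR at position 199 (chr2:24791739-24791763, minus strand), Arid3b in coding sequence at -467 (chr9:57796293-57796317, minus strand) and Arid2 in coding sequence at -241, again across an intron (chr15:96392459-96392577, plus strand). Among the depleted members the core stood in the 3′ UTR of Kmt5a at 221 (chr5:124460907-124460931, plus strand), of Kmt2e at 6 (chr5:23503041-23503065, plus strand), of Smarcb1 at 100 (chr10:75896937-75896961, minus strand) and of Smarcd3 at 64 (chr5:24592675-24592699, minus strand), and in the coding sequence of Ezh2 at -1085 (chr6:47545733-47545757, minus strand). Of the 77 protein-coding members tested, 75 (97.4%) held GGACT on the sense strand of their longest coding transcript, and Suz12 and Smarca5 held none, beside 93.2% of all tested protein-coding transcripts. Per kilobase the members' median was 1.05, and that of all tested protein-coding transcripts was 1.05 too. A match is a string of letters and not a measured m6A site, and m6A was not measured in these libraries.

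The libraries were checked before the enzymes were compared. Retinal markers were present in all 4. Of the progenitor markers, Pax6 stood at 98.1 and 95.1 CPM (counts scaled by library size and by a TMM factor that evens out composition) in the inputs and at 60.1 and 55.7 CPM after the pulldown, Rax at 32.8 and 22.8 against 19.7 and 19.6, Sox2 at 13.7 and 13.96 against 5.07 and 5.32, and Lhx2 at 39.7 and 33.4 against 31.2 and 29.6. The 6 markers of retinal ganglion cells (RGCs) summed to 43.8 and 34.1 CPM in the inputs and to 16.5 and 16.7 in the RIP libraries. This sum leaned on Sncg, with 22.9 and 13.7 CPM against 1.59 and 1.79. Its log2 fold change of RIP over input was -3.43, and the other RGC markers ran from -0.83 (Thy1) to -0.09 (Pou4f1). The 4 photoreceptor precursor genes summed to 88.4 and 73.3 against 95.1 and 106, with Crx at 0.89, Nrl at 0.19, Otx2 at -0.39 and Rcvrn too low to test. The 4 amacrine and horizontal cell genes summed to 58.9 and 90.7 against 39.1 and 36.1, from -2.17 (Onecut1) to -0.15 (Ptf1a). Markers of other tissues were scarce: the lens list reached at most 0.146 CPM with 2 of 4 genes at 0 throughout, the blood list 0.990 CPM, the endothelial list 3.45, the microglial list 3.41 and the astrocyte list 1.66, and Rpe65, Tyr and Tyrp1 of the pigment epithelium were at 0 in every library, with Rlbp1 at 3.38 to 4.32. The members were not assigned to cell types, since in bulk RNA fewer cells of a type and less RNA per cell cannot be told apart, and the part of marker levels in the results was not tested.

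The inputs differed from each other more than the RIP libraries did, and for these enzymes the difference followed base composition. Between the inputs, 27 of the 78 members (34.6%) differed by at least 1 on the log2 scale, with an SD over members of 1.17, beside 27.2% of all tested genes. Between the RIP libraries 3 members (3.85%) did, with an SD of 0.621, beside 11.8% of all tested genes. Across the 78 members the log2 ratio of input replicate 2 to input replicate 1 had a Spearman correlation of -0.833 with the GC content of the transcript, against -0.598 over 11953 tested protein-coding genes, and the same ratio between the RIP libraries one of -0.187. These are correlations across genes of the same libraries, which are not independent replicates. AT-rich members were thus higher in input replicate 2 and GC-rich members in input replicate 1.

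**Figure D1:**
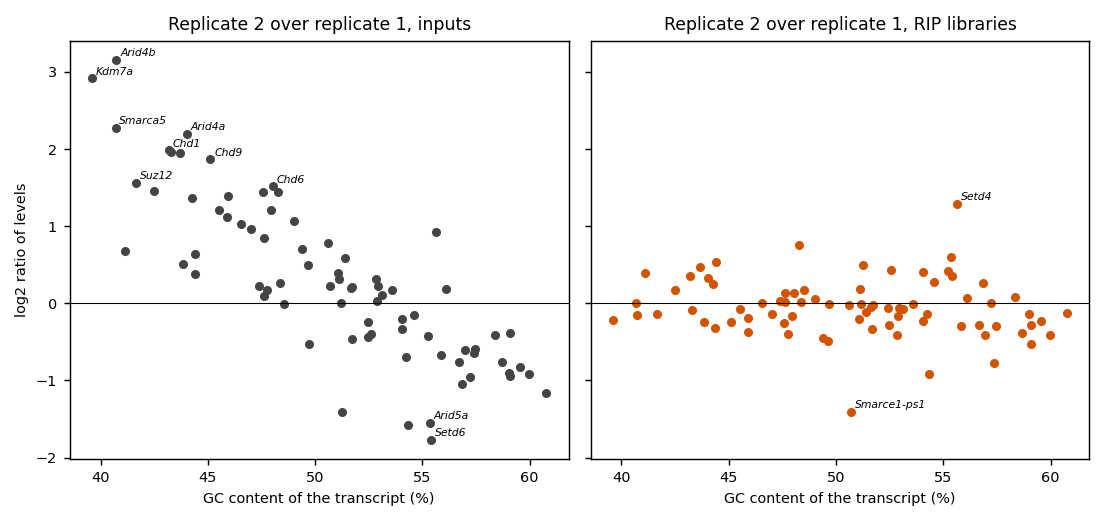
Log2 ratio of replicate 2 to replicate 1 (y axis) against the GC content of the longest coding transcript in percent (x axis) for 77 tested members, inputs on the left and RIP libraries on the right; each point is a member, and Kdm4d, with 0 counts in both replicate 1 libraries, is left out. Arid4b (3.16) and Kdm7a (2.92) lead a downward slope in the inputs, and the RIP points lie along 0 apart from Setd4 (1.29) and Smarce1-ps1 (-1.40).

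Arid4b shows the size of this difference. Its normalized level was 0.960 and 8.69 CPM in the inputs and 1.90 and 1.70 CPM in the RIP libraries, so that its log2 ratio of RIP to input was 0.98 in replicate 1 and -2.33 in replicate 2. The RIP libraries lay between the inputs. Arid4b (GC content 40.7%) is also crossed by Ggps1 on the other strand, and its fold change over both replicates was -1.42 with a standard error (SE) of 0.821 (adjusted p = 0.285).

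RIP was compared with input to ask which of these transcripts YTHDF2 holds. Enriched means here that the log2 fold change reached 1 with an unadjusted p below 0.05 in edgeR's quasi-likelihood test, and depleted that it reached -1 at the same p. Fold changes compare a transcript with the bulk of the RNA in its library and do not give how much of it was bound. With 2 libraries against 2, no exact permutation test of a single gene can give a two-sided p below 0.333, so every call leans on the spread that edgeR shares across genes.

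The lysine demethylase Kdm4a and the methyltransferase Ehmt1 were enriched with YTHDF2 and the methyltransferase Kmt5a was depleted. Most of the other members were not called in either direction. A member without a call was not thereby shown to lie at the level of the bulk. Of the 78 members tested, 4 were called enriched (5.13%, beside 9.43% of all 13632 transcripts tested), namely Kdm4a, Ehmt1, Arid3b and Arid2. Another 5 were called depleted (6.41%, beside 17.2% of all tested), namely Kmt5a, Kmt2e, Smarcd3, Ezh2 and Smarcb1. At a Benjamini-Hochberg adjusted p below 0.05 there were 2 enriched members, Kdm4a and Ehmt1 (2.56%, beside 3.48%), and 1 depleted member, Kmt5a (1.28%, beside 9.78%), and with the replicate number in the model 1 enriched member passed it, Kdm4a. Both RIP libraries lay above both inputs in 23 members (29.5%, beside 29.6%) and below both in 10 (12.8%, beside 31.3%). The median log2 fold change of the 78 members was 0.16, and that of all tested genes -0.05.

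These counts depended on scaling and on single libraries. With scaling by library size alone, 12 members were enriched (15.4%, beside 17.3% of all tested) and 2 depleted (2.56%, beside 12.7%). Of the members' calls 85.7% then pointed up in place of 44.4%, and of the calls over all genes 57.7% in place of 35.4%. The median of all tested genes moved from -0.05 to 0.27. With each library's trend on transcript length and GC content taken out, 2 were enriched (2.56%, beside 9.80%) and 5 depleted (6.41%, beside 11.0%), 28.6% of the calls pointed up beside 47.1% over all genes, and the members' median turned to -0.38 beside 0.04 for all tested genes. Leaving out a library moved the shares of all genes as well. Without input replicate 1 there were 8 enriched members (10.3%, beside 12.3% of all tested) and 8 depleted (10.3%, beside 17.3%), and without input replicate 2 there were 16 (20.8%, beside 15.03%) and 6 (7.79%, beside 18.7%). Without RIP replicate 1 there were 2 (2.5%, beside 4.52%) and 1 (1.25%, beside 10.5%), and without RIP replicate 2 there were 1 (1.28%, beside 4.65%) and 1 (1.28%, beside 10.8%). Kdm4a and Kmt5a kept their calls in all of these fits.

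**Figure D2:**
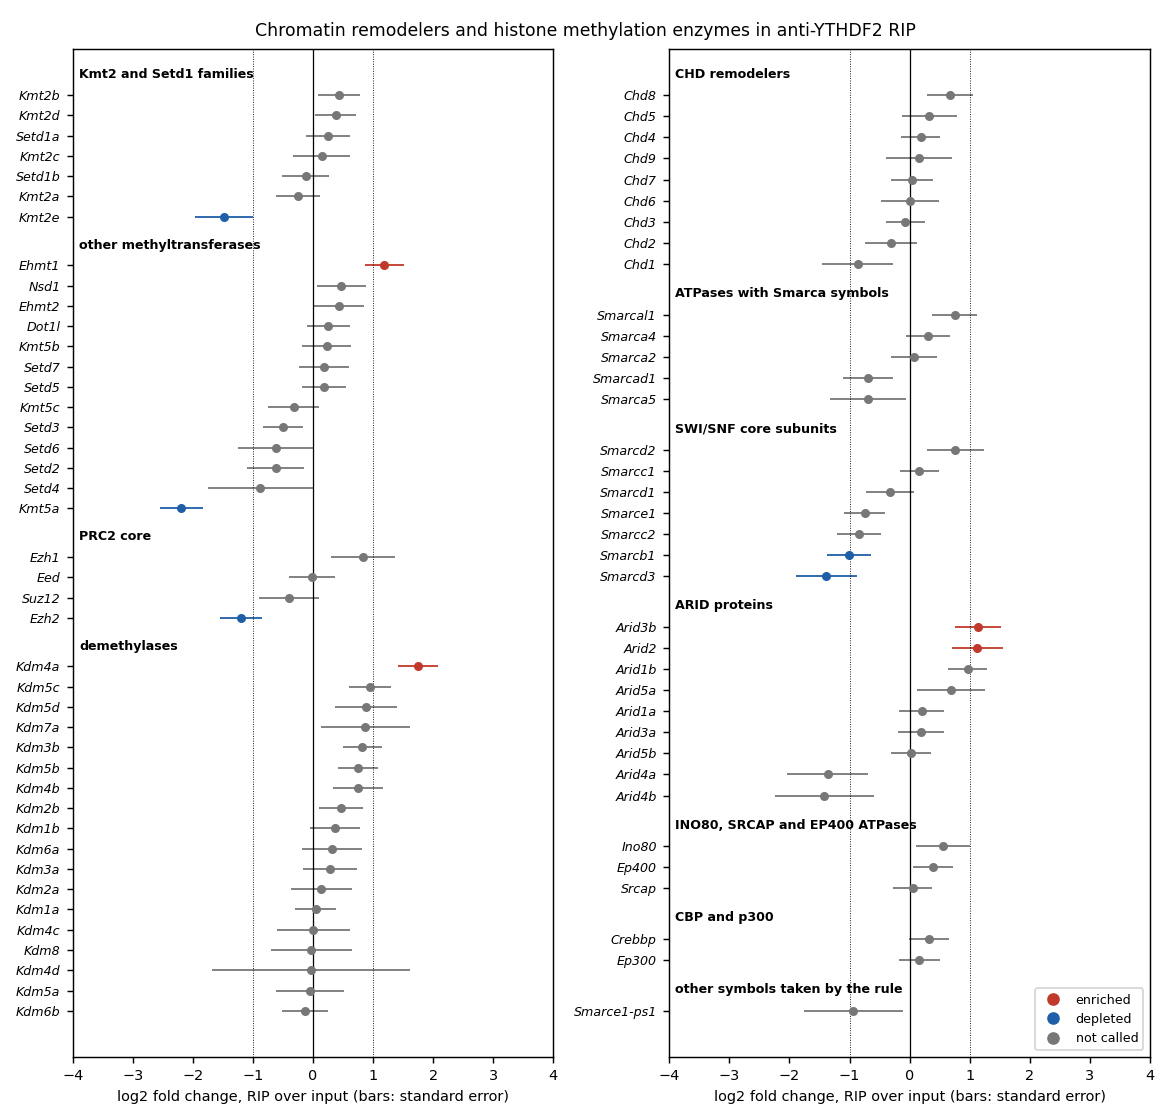
Log2 fold change of RIP over input (x axis, points, with bars of 1 standard error from edgeR) for the 78 tested members, grouped by role and ordered within each group; dotted lines mark fold changes of -1 and 1. The enriched members (red) run from Arid2 at 1.12 to Kdm4a at 1.74 and the depleted members (blue) from Smarcb1 at -1.02 to Kmt5a at -2.19.

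The Kmt2 and Setd1 families hold the H3K4 methyltransferases, which mark promoters and enhancers of active genes, together with Kmt2e, which is not known to methylate H3K4 by itself. Of these 7 genes none was enriched (beside 9.43% of all tested) and 1 was depleted (14.3%, beside 17.2%), namely Kmt2e, and their median log2 fold change was 0.14. Kmt2d, which marks enhancers, stood at 48.1 and 36.3 CPM in the inputs and 53.2 and 56.4 CPM in the RIP libraries. Kmt2b stood at 12.1 and 9.27 CPM against 15.8 and 12.97 CPM. In both genes the RIP libraries lay above the inputs by a narrow margin, with log2 fold changes of 0.38 (adjusted p = 0.498) and 0.43 (adjusted p = 0.440). Kmt2a, the founding member of the family, had 13.4 and 23.1 CPM in the inputs and 15.5 and 15.2 CPM in the RIP libraries. Its RIP values fell between those of the inputs, and the fold change was -0.25 with an SE of 0.373. Over the 10 other settings the fold change of Kmt2a ran from -0.998 to 0.063. The smallest adjusted p there was 0.0348, and 0 of these settings called it.

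Kmt2e, a relative of Kmt2a with a chromatin-binding PHD finger, had 12.1 and 31.9 CPM in the inputs and 8.88 and 6.86 CPM in the RIP libraries. Both RIP values lay below both inputs, but the inputs themselves stood 1.39 apart on the log2 scale. The log2 fold change was -1.48 with an SE of 0.481 (adjusted p = 0.0780), and it was -0.63 without input replicate 2, where the call was lost, and -2.02 without input replicate 1. The call was also lost without either RIP library, at -1.62 and -1.26, and in limma, at -0.99 on log2(FPKM + 0.1) and -0.60 on log2(FPKM + 1), where FPKM stands for fragments scaled by transcript length and library size. Srpk2 overlaps 972 exon bases of Kmt2e on the other strand and had 58.0% as many counts, so reads of the pair cannot be told apart if strand was not used in counting.

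The 13 other methyltransferases held 1 enriched member (7.69%, beside 9.43% of all tested) and 1 depleted member (7.69%, beside 17.2%), with a median of 0.18. Ehmt1 (ENSMUSG00000036893, chr2:24789928-24919614) encodes GLP, which with its partner G9a (Ehmt2) places methyl groups on H3K9 in silent chromatin. Ehmt1 was counted 337 and 349 times in the inputs and 584 and 555 times in the RIP, or 10.1 and 10.2 CPM against 23.1 and 23.1 CPM. The replicates of each kind were nearly equal and the groups lay well apart. The log2 fold change was 1.19 with an SE of 0.326 (adjusted p = 0.0462), a 2.28-fold higher level in the RIP. With the replicate number in the model the adjusted p was 0.0759, with the trends on length and GC content taken out the fold change was 0.63, and without either RIP library the call was lost at 1.28, as it was in limma on log2(FPKM + 1) at 0.93.

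Ehmt2 itself had 17.0 and 7.58 CPM in the inputs and 17.2 and 15.8 CPM in the RIP libraries. Its RIP replicates were close to each other and input replicate 2 stood alone at the low end. The fold change was 0.42 with an SE of 0.426 (adjusted p = 0.549).

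Kmt5a (ENSMUSG00000049327, chr5:124439930-124462308) is the enzyme that sets single methyl groups on H4K20 during the cell cycle, and it gave the lowest fold change of all members. Its counts were 863 and 616 before and 121 and 115 after the pulldown, or 25.9 and 17.95 CPM against 4.80 and 4.78 CPM. The RIP libraries were far below both inputs. The log2 fold change was -2.19 with an SE of 0.364 (adjusted p = 0.00693), which is a 4.57-fold higher level in the input. Over the 10 other settings it ran from -2.26 to -1.22 and over the 4 fits without a library from -2.44 to -1.91, and it was called depleted in each of these fits.

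The relatives of Kmt5a that add the next methyl groups at the same lysine were not called. Kmt5b had 5.40 and 10.6 CPM in the inputs and 9.79 and 8.90 CPM in the RIP libraries (log2 fold change 0.23, SE 0.406), and Kmt5c had 8.46 and 4.49 CPM against 5.91 and 4.45 CPM (-0.32, SE 0.428). In Kmt5b the RIP values lay between the inputs, and in Kmt5c the groups overlapped as well. The H3K36 enzymes Nsd1 (0.47, SE 0.406) and Setd2 (-0.62, SE 0.475) and the H3K79 enzyme Dot1l (0.25, SE 0.360) gave adjusted p-values of 0.481, 0.419 and 0.687.

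Polycomb repressive complex 2 (PRC2) silences genes by methylating H3K27 through Ezh1 or Ezh2, which need Eed and Suz12 to work. Of these 4 genes none was enriched (beside 9.43% of all tested) and 1 was depleted (25%, beside 17.2%), and their median was -0.21. Ezh2, the enzyme of dividing cells, had 16.6 and 21.5 CPM in the inputs and 9.20 and 7.36 CPM in the RIP libraries. All RIP values lay below the inputs, and the log2 fold change was -1.20 with an SE of 0.348 (adjusted p = 0.0549). The call was lost without RIP replicate 1 (-1.29), without RIP replicate 2 (-0.98), with library size alone (-0.86), with the trends on length and GC content taken out (-0.94) and in limma on log2(FPKM + 0.1) (-0.90) and log2(FPKM + 1) (-0.60). It was kept in 5 of the 10 other settings. The progenitor markers Pax6, Rax, Sox2 and Lhx2 were also lower in both RIP libraries than in both inputs, as given above, and their part in this result was not tested.

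Ezh1, the form found more in resting cells, had 2.73 and 1.02 CPM in the inputs and 2.77 and 3.91 CPM in the RIP libraries. Input replicate 1 and RIP replicate 1 were almost level, so that the log2 ratio was 0.03 in replicate 1 and 1.93 in replicate 2. Its fold change was 0.83 with an SE of 0.530 (adjusted p = 0.330). Eed (-0.02, SE 0.377) and Suz12 (-0.40, SE 0.502) had RIP levels that overlapped those of the inputs.

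The 18 demethylases held 1 enriched and no depleted member, with a median log2 fold change of 0.34 beside -0.05 for all tested genes. The enriched share was 5.56%, beside 9.43% of all tested, and 17.2% of all tested were depleted. Both RIP libraries lay above both inputs in 7 of the demethylases (38.9%, beside 29.6% of all tested) and below in 0 (beside 31.3%). These shares use the scaling of the main fit alone. Kdm4a (ENSMUSG00000033326, chr4:118136957-118180043) removes methyl groups from H3K9 and H3K36. Counts were 372 and 433 in the inputs against 1008 and 956 in the RIP, or 11.2 and 12.6 CPM against 40.0 and 39.7 CPM. The RIP replicates agreed closely and stood far above both inputs. The log2 fold change was 1.74 with an SE of 0.334 (adjusted p = 0.0127), a 3.35-fold higher level in the RIP, and it was called in all 10 other settings (1.23 to 2.07) and in all 4 fits without a library (1.66 to 1.83).

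The paralogs of Kdm4a gave lower values. Kdm4b had 5.31 and 3.12 CPM in the inputs and 8.01 and 6.11 CPM in the RIP libraries, without overlap (0.74, SE 0.412, adjusted p = 0.264). Over the 10 other settings its fold change ran from 0.14 to 1.12. Kdm4c had 1.23 and 4.81 CPM against 2.54 and 3.53 CPM (0.01, SE 0.606). Its inputs enclosed the RIP values. Kdm4d rested on 0 and 13 input counts and 0 and 9 RIP counts and cannot be read at this depth. Whether the paralogs differ from Kdm4a was not tested.

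The Kdm5 enzymes take methyl groups off H3K4. Kdm5c, which is X-linked, had 7.68 and 9.56 CPM in the inputs and 19.0 and 14.3 CPM in the RIP libraries (0.95, SE 0.348, adjusted p = 0.109), and Kdm5b had 7.08 and 7.55 CPM against 11.7 and 12.8 CPM (0.75, SE 0.332, adjusted p = 0.173). In both the RIP libraries lay above the inputs, below the limit of 1 for a call. Over the 10 other settings Kdm5c ran from 0.31 to 1.30 and Kdm5b from 0.15 to 1.07. Kdm5a had 3.36 and 13.1 CPM in the inputs and 8.24 and 7.73 CPM in the RIP libraries (-0.05, SE 0.567). Its RIP values lay inside a wide gap between the inputs. Kdm5d, from the Y chromosome, had the lowest input level of all tested members per length, with a mean of 0.0494 FPKM, and a fold change of 0.88 with an SE of 0.518.

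Kdm3b, an H3K9 demethylase, had 12.6 and 13.6 CPM in the inputs and 23.7 and 22.5 CPM in the RIP libraries, again without overlap (0.82, SE 0.326, adjusted p = 0.135). Its fold change ran from 0.18 to 1.15 over the 10 other settings. Counts of Kdm7a were 29 and 229 in the inputs against 187 and 154 in the RIP. Input replicate 1 stood far below the other 3 libraries, and the log2 ratio was 3.07 in replicate 1 and -0.06 in replicate 2. Kdm7a was not called (0.87, SE 0.742, adjusted p = 0.472), but it was called enriched without input replicate 2 (2.98). It was also called in 3 of the 10 other settings, among them the replicate number in the model (1.43, adjusted p = 0.0587).

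Neither H3K27 demethylase was called in the main fit. Kdm6a had 2.55 and 6.99 CPM in the inputs and 5.59 and 6.28 CPM in the RIP libraries (0.31, SE 0.498), and Kdm6b had 52.2 and 29.4 CPM against 40.2 and 34.1 CPM (-0.14, SE 0.382). The RIP values of both lay between the inputs. Kdm1a (LSD1), which works with repressor complexes, stood at 8.13 and 9.30 CPM against 9.12 and 8.81 CPM (0.04, SE 0.335, adjusted p = 0.948).

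**Figure D3:**
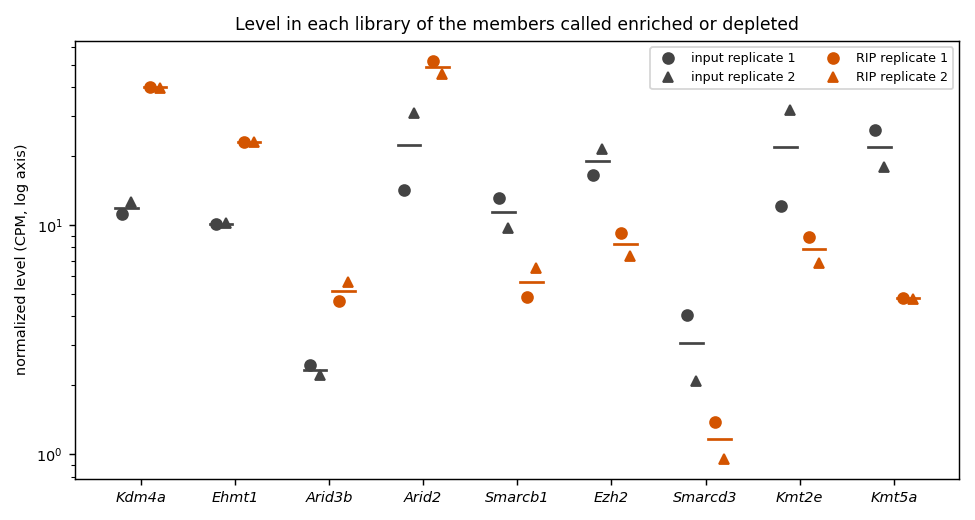
Normalized level in CPM (y axis, log scale) of the 9 members called enriched or depleted (x axis, ordered by fold change); circles are replicate 1, triangles replicate 2, grey the inputs, orange the RIP libraries and short lines the mean of each group. The RIP symbols of Kdm4a, Ehmt1 and Kmt5a nearly coincide, whereas the inputs of Arid2 (14.2 and 30.7 CPM) and Kmt2e (12.1 and 31.9 CPM) stand apart.

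None of the 9 CHD remodelers was called enriched (beside 9.43% of all tested) or depleted (beside 17.2%), and their median was 0.05. In the main edgeR fit, DESeq2 and limma, 0 of them had an unadjusted p below 0.05. Fits without a library and the other edgeR alternatives are not part of this count. Over the 10 other settings Chd3 ran from -0.83 to 0.25, with a smallest adjusted p of 0.0506. The smallest adjusted p there was 0.0829 for Chd1 and 0.0848 for Chd2. Chd4, the ATPase of the NuRD complex, which joins remodeling with histone deacetylation, had 27.4 and 31.9 CPM in the inputs and 34.4 and 33.0 CPM in the RIP libraries (0.19, SE 0.326, adjusted p = 0.751). Chd8 gave the highest fold change of the family, with 7.11 and 11.5 CPM against 17.2 and 12.6 CPM (0.67, SE 0.381, adjusted p = 0.273). In both genes the RIP libraries lay above the inputs, in Chd4 by little. Chd1 gave the lowest value, -0.87 with an SE of 0.586 (adjusted p = 0.362), and its levels of 3.84 and 15.2 CPM in the inputs enclosed the 4.60 and 5.86 CPM of the RIP libraries. Without input replicate 2 its fold change was 0.44, and without input replicate 1 it was -1.54. Fits without a library reached 1.06 for Chd8 and 1.37 for Chd9.

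The ATPases with Smarca symbols are the motors of SWI/SNF and ISWI complexes, together with their relatives Smarcal1, which acts at stalled replication forks, and Smarcad1, which belong to neither kind of complex. Of these 6 genes 5 were tested, and none was called enriched (beside 9.43% of all tested) or depleted (beside 17.2%). In the main edgeR fit, DESeq2 and limma, 0 had an unadjusted p below 0.05. Fits without a library and the other edgeR alternatives were not counted. Smarcal1 gave the highest value (0.76, SE 0.374), and Smarcad1 gave -0.69 with an SE of 0.416. Smarca4 (Brg1) had 49.3 and 31.0 CPM in the inputs and 54.7 and 44.7 CPM in the RIP libraries, so that the groups overlapped (0.31, SE 0.367, adjusted p = 0.619). Its alternative, Smarca2 (Brm), had 2.9996 and 3.73 CPM against 3.33 and 3.78 CPM (0.08, SE 0.384). The ISWI motor Smarca5 had 2.70 and 13.1 CPM in the inputs and 4.88 and 4.91 CPM in the RIP libraries. Both RIP values lay between inputs that stood 2.28 apart on the log2 scale, and the fold change was -0.70 with both inputs, 0.85 without input replicate 2 (adjusted p = 0.0376) and -1.43 without input replicate 1 (adjusted p = 0.000247).

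The core subunits of SWI/SNF had the lowest median of the role groups with more than 1 tested member, -0.75 over 7 genes, with 2 depleted (28.6%, beside 17.2% of all tested) and 0 enriched (beside 9.43%). Both RIP libraries lay below both inputs in 4 of the 7 (57.1%, beside 31.3%) and above in 2 (28.6%, beside 29.6%). With so few genes the difference of these shares from those of all genes was not tested. Smarcb1 (Snf5), which clamps the complex to the nucleosome, had 13.1 and 9.76 CPM in the inputs and 4.84 and 6.49 CPM in the RIP libraries (-1.02, SE 0.367, adjusted p = 0.105). It sat at the limit, and the call was lost with library size alone (-0.70), with the trends on length and GC content taken out (-0.28), without RIP replicate 1 (-0.71), without RIP replicate 2 (-1.15), without input replicate 1 (-0.79), with no filter on low counts (-0.92) and in limma on log2(FPKM + 0.1) (-0.69) and log2(FPKM + 1) (-0.37). Smarcc2, a scaffold subunit, had 48.4 and 30.0 CPM against 23.0 and 20.8 CPM (-0.84, SE 0.367), and Smarce1, which contacts DNA, 45.5 and 33.0 CPM against 23.7 and 23.2 CPM (-0.75, SE 0.342). The RIP libraries lay below the inputs in both, and the adjusted p-values were 0.165 and 0.185.

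Smarcd1, Smarcd2 and Smarcd3 are alternative forms of the same subunit, and Smarcd3 is the form linked with differentiated cells. Smarcd3 had 4.05 and 2.10 CPM in the inputs and 1.39 and 0.956 CPM in the RIP libraries (-1.39, SE 0.503, adjusted p = 0.106). It lost its call without input replicate 1 (-0.84), without either RIP library (-1.56 and -1.03), with the trends taken out (-0.79), with library size alone (-1.002) and in limma on log2(FPKM + 0.1) (-0.83) and log2(FPKM + 1) (-0.27). It shares 2466 exon bases with Chpf2 on the other strand, which had 131% as many counts, so its value is uncertain. Smarcd2 had 2.43 and 1.17 CPM in the inputs and 2.77 and 3.33 CPM in the RIP libraries (0.76, SE 0.477), and Smarcd1 39.4 and 20.4 CPM against 23.8 and 23.9 CPM (-0.32, SE 0.394). The RIP levels of Smarcd2 lay above both inputs and those of Smarcd1 between them. Smarcd1 had the highest input level of all tested members per length, a mean of 7.96 FPKM, followed by Smarcc2 (5.97) and Smarca4 (5.25).

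ARID proteins share a DNA-binding domain, and some of them are subunits of remodeling complexes. Of 9 tested, 2 were enriched (22.2%, beside 9.43% of all tested) and 0 depleted (beside 17.2%), with a median of 0.20, and 0 passed the adjusted threshold. Arid3b, a transcription factor of this family, had 2.46 and 2.21 CPM in the inputs and 4.68 and 5.65 CPM in the RIP libraries (1.14, SE 0.384, adjusted p = 0.0853). Arid2, which defines the PBAF form of SWI/SNF, had 14.2 and 30.7 CPM against 52.2 and 45.7 CPM (1.12, SE 0.425, adjusted p = 0.119). In both genes the RIP libraries lay above the inputs. Arid3b lost its call without RIP replicate 2 (1.09) and in limma on log2(FPKM + 1) (0.41), and Arid2 without input replicate 1 (0.67) and without either RIP library (1.09 and 1.27). With the trends on length and GC content taken out, neither was called (0.69 and 0.71).

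Just outside the limit was Arid1b, a BAF subunit, with 22.9 and 23.4 CPM in the inputs and 47.8 and 42.7 CPM in the RIP libraries. Its log2 fold change was 0.97 with an SE of 0.327 (adjusted p = 0.0871), and the groups did not overlap. Over the 10 other settings it ran from 0.17 to 1.31 and was called in 3, with adjusted p-values from 0.0334 to 0.676. Arid1a, which takes the same place in BAF, had 85.1 and 50.2 CPM in the inputs and 85.1 and 70.2 CPM in the RIP libraries (0.20, SE 0.378). Input replicate 1 of Arid1a equalled RIP replicate 1. Arid4a gave -1.36 with an SE of 0.674 (adjusted p = 0.215), with input replicate 1 (1.23 CPM) between the RIP libraries (1.19 and 1.497 CPM).

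The large ATPases Ino80, Srcap and Ep400, which exchange or space nucleosomes, were not called. In the main edgeR fit, DESeq2 and limma, 0 of these and of the acetyltransferases below reached an unadjusted p of 0.05. Fits without a library and the other edgeR alternatives are not part of this count. Without a library the fold change of Ino80 ran from 0.12 to 1.18. Over the 10 other settings Srcap ran from -0.76 to 0.40, with a smallest adjusted p of 0.0635. Ep400 had 24.1 and 20.4 CPM in the inputs and 29.7 and 28.6 CPM in the RIP libraries (0.39, SE 0.328), Srcap 53.9 and 46.7 CPM against 56.1 and 47.9 CPM (0.05, SE 0.331), and Ino80 1.92 and 4.02 CPM against 4.28 and 4.45 CPM (0.55, SE 0.451). In Ep400 and Ino80 the RIP libraries lay above the inputs, and in Srcap they overlapped. The acetyltransferases Crebbp (28.5 and 33.1 CPM against 42.9 and 34.1 CPM, 0.32, SE 0.336) and Ep300 (13.4 and 17.6 CPM against 18.6 and 16.1 CPM, 0.16, SE 0.339) had adjusted p-values of 0.566 and 0.797. The pseudogene Smarce1-ps1, at 19 and 23 input counts and 12 and 4 RIP counts (-0.94, SE 0.822), may hold reads of Smarce1.

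The replicates taken separately agreed less for these enzymes than for all tested genes, as a description. The log2 ratio of RIP to input had the same sign in both replicates in 46 of 78 members (59.0%), beside 70.4% of all tested genes. Genes outside the rule from the same complexes or pathways, listed further below, were much like the members, with 56 of 93 (60.2%). Both ratios were at least 1 in 2 members (2.56%, beside 6.59%), Kdm4a and Ehmt1, and at most -1 in 2 (2.56%, beside 14.6%), Kmt5a and Smarcd3. Across the 78 members the ratios of the replicates had a Spearman correlation of 0.181, and across 11953 tested protein-coding genes one of 0.521. GC content had a Spearman correlation of -0.451 with the members' ratio in replicate 1 and of 0.543 with that in replicate 2. The sign of this relation turned between replicates, and the median ratio of the members was 0.30 in replicate 1 and 0.01 in replicate 2.

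**Figure D4:**
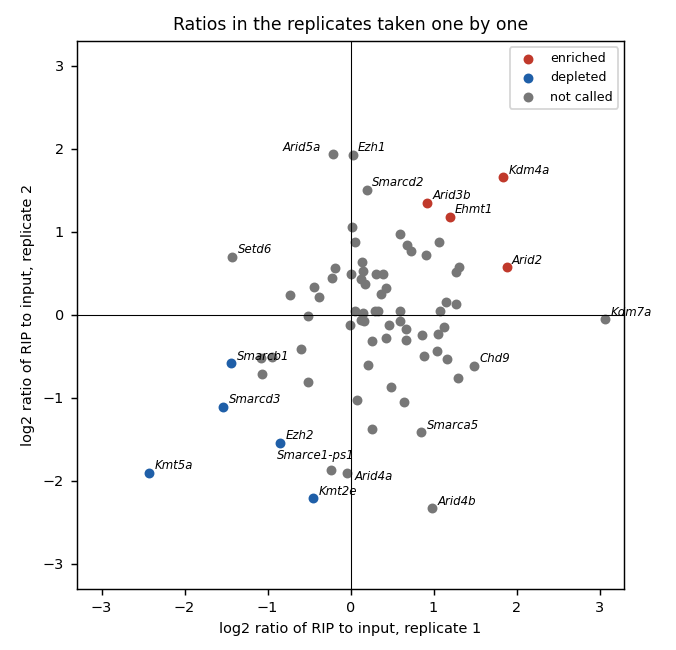
Log2 ratio of RIP to input in replicate 1 (x axis) and replicate 2 (y axis) for 77 tested members, coloured by call, with Kdm4d left out for its 0 counts in both replicate 1 libraries. Kdm4a (1.84 and 1.65) and Kmt5a (-2.43 and -1.90) lie along the diagonal, while Kdm7a (3.07 and -0.06) and Arid4b (0.98 and -2.33) lie far from it.

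These enzymes come from long transcripts. The longest coding transcript had a median of 6354 nt in the 77 protein-coding members tested, beside 3372 nt in all tested protein-coding genes, and 64.9% of the members were over 5000 nt, beside 24.1%. The excess lay in the coding sequence (median 3945 nt beside 1374 nt), not in the 3′ UTR (1322 nt beside 1328 nt). Length had a Spearman correlation of 0.298 with the fold change across members and of 0.486 across all tested protein-coding genes. The 39 members longer than the members' median had a median fold change of 0.19, with 1 enriched (2.56%) and 1 depleted (2.56%). The other 39 had one of -0.02, with 3 enriched (7.69%) and 4 depleted (10.3%). Of all tested genes, 9.43% were enriched and 17.2% depleted. The number of GGACT cores, which grows with length, had a correlation of 0.371 with the fold change, and their number per kilobase one of 0.244.

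Genes outside the rule that encode subunits of the same complexes, or enzymes of the same pathways, were listed for comparison, 94 in all, of which 93 were tested. Of these, 3 were enriched (3.23%, beside 9.43% of all tested) and 13 depleted (14.0%, beside 17.2%), and their median was -0.18. In this list 2 enriched and 8 depleted genes had an adjusted p below 0.05. As shares of the 93 tested partners, both lay below those of all tested genes, which were 3.48% enriched and 9.78% depleted. Ss18l1 (Crest), a subunit of the neuronal form of SWI/SNF, had 3.36 and 5.60 CPM in the inputs and 17.8 and 21.2 CPM in the RIP libraries (2.12, SE 0.388, adjusted p = 0.0106). Dpf3, another subunit of SWI/SNF, had 3.63 and 2.33 CPM against 7.37 and 5.90 CPM (1.15, SE 0.406, adjusted p = 0.0972). Both were called enriched without overlap between RIP and input, and Dpf3 did not pass the adjusted threshold. Trrap, a scaffold that recruits acetyltransferases, had 31.8 and 22.7 CPM in the inputs and 69.6 and 63.2 CPM in the RIP libraries (1.29, SE 0.350, adjusted p = 0.0449).

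The depleted partners were led by Dpy30 and Brd7. Dpy30, a small subunit shared by the H3K4 methyltransferase complexes, had 307 and 225 input counts against 17 and 21 in the RIP (-3.34, SE 0.444, adjusted p = 0.00264). With the trends on length and GC content taken out, its value was -1.48 (adjusted p = 0.0768). Without RIP replicate 1 or 2 the adjusted p was 0.106 and 0.0714. Brd7, a bromodomain subunit of PBAF, had 464 and 503 counts against 77 and 62 (-2.34, SE 0.358, adjusted p = 0.00497). Both stood far below the inputs in each RIP library. Beside 17.2% of all tested genes, 3 of 9 NuRD subunits were depleted (33.3%, Gatad2b at -1.89, Hdac2 at -1.64 and Mbd2 at -1.41), 6 of 21 subunits of INO80, SRCAP and TIP60 (28.6%, Znhit1 at -1.96, Ing3 at -1.95, Morf4l1 at -1.74, Ino80c at -1.35, Ruvbl1 at -1.11 and Ino80b at -1.09), 2 of 11 COMPASS subunits (18.2%, Dpy30 and Pagr1a), 1 of 16 PRC1 genes (6.25%, Pcgf1) and 1 of 16 BAF and PBAF subunits (6.25%, Brd7). Pagr1a rested on 108 and 45 input counts against 1 and 17 in the RIP (-2.61, SE 0.944, adjusted p = 0.105). Its log2 ratio was -5.77 in replicate 1 and -0.87 in replicate 2. The 7 PRC2 accessory genes ran from -0.79 (Rbbp7) to 0.95 (Jarid2). The 7 other SET-domain methyltransferases ran from -0.31 to 0.49 and the 6 other acetyltransferases from -0.69 to 0.70. All genes of these 3 groups were short of the limits for a call.

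**Figure D5:**
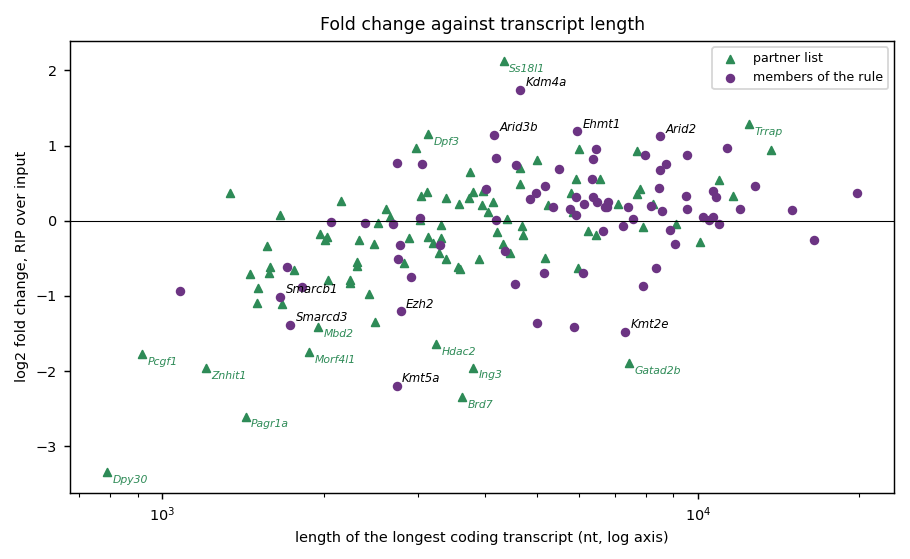
Log2 fold change of RIP over input (y axis) against the length of the longest coding transcript in nt (x axis, log scale) for the 78 tested members (circles) and the 93 tested partners (triangles). Dpy30 (789 nt, -3.34) lies at the short end and Trrap (12479 nt, 1.29) near the long end, while Kdm4a (4663 nt) and Gatad2b (7438 nt, -1.89) lie away from this slope.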

How the data were processed

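RNA of anti-YTHDF2 RIP and input was sequenced from a stranded TruSeq kit. The authors deposited counts per gene, not normalized, and FPKM values scaled for length and library size. STAR 2.5, HTSeq and GRCm38 stand in the submitters' processing notes, and the strand setting of counting is not given in the sources used here. Genes passing filterByExpr (count 10, total 15) were scaled by TMM (factors of 0.845 to 1.29) and tested with glmQLFit and glmQLFTest (edgeR 4.0.16, R 4.3.3), with Benjamini-Hochberg adjustment over all tested genes. The p-values measure the spread between 2 libraries a group. SEs came from the fold change and its F statistic, and single ratios used a prior count of 0.5.

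The design text pairs input and RIP by replicate number. Their differences between replicates had a Spearman correlation of -0.0318 over all tested genes and -0.0643 over the 6858 genes that reached 50 counts throughout. The replicate number was left out of the model and added as an alternative. GENCODE M21 matched 52403 of 52550 identifiers.

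Alternatives were DESeq2 1.42.0, library size alone, RLE factors, no filter, at least 10 counts in every library, limma 3.58.1 on log2(FPKM + 0.1) and log2(FPKM + 1) for a mean FPKM of at least 0.1, trends on length and GC content taken out by offsets (natural splines, 4 degrees of freedom), the block, both, and each library left out. Tests were tried on simulated data first. Genes were named for an adjusted p below 0.05 with a log2 fold change past 1, as the extremes of each role group, as core enzymes (Ezh2, Kmt2a, Kmt2d, Kdm1a, Chd4, Smarca4, Smarcb1 and Arid1a) and as the 3 highest and 3 lowest partners at an adjusted p below 0.05; other genes were named after their values were seen. Members and lists were chosen with earlier results of these data known. A marker of the progenitor list, and the sum over that list, are not reported here.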

Additional observations from a re-analysis of the deposited data

How the results depend on the processing

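Members enriched numbered 12 with library size alone, and 2 with log2(FPKM + 1), with the length and GC trend taken out and with that trend and the replicate block, in place of 4. Of all tested genes 17.3%, 2.66%, 9.8% and 9.5% were enriched in these fits in turn, in place of 9.43%. Members depleted numbered 2 with library size alone and 1 with log2(FPKM + 0.1) or log2(FPKM + 1), in place of 5. The shares of all tested genes depleted there were 12.7%, 14.8% and 7.28%, in place of 17.2%. At an adjusted p below 0.05, 1 member in place of 2 was enriched with no filter, with the replicate block, with the trend taken out and with trend and block. Of all tested genes 1.25%, 5.29%, 6.68% and 3.54% were enriched there, in place of 3.48%. In place of 1 depleted member there were 3 with DESeq2, 3 with at least 10 counts in every library, 6 with the trend taken out and 3 with trend and block. The depleted shares of all tested genes were 6.24%, 11.5%, 7.43% and 4.61%, in place of 9.78%. Partners enriched were 8 with library size alone, 6 with no filter and 8 with log2(FPKM + 0.1), in place of 3. All tested genes gave 17.3%, 6.68% and 12.4% there, in place of 9.43%. Partners depleted were 3 with log2(FPKM + 1), 8 with the trend taken out and 7 with trend and block, in place of 13. All tested genes gave 7.28%, 11.0% and 10.3% there, in place of 17.2%. The members' median was 0.47 with library size alone, 0.41 with log2(FPKM + 0.1), -0.38 with the trend taken out and -0.37 with trend and block. Leaving out a library gave from 1 to 16 members enriched, 1 to 8 depleted, 0 to 22 and 0 to 16 at the adjusted threshold, a median of 0.04 to 0.28, 2 to 12 partners enriched and 7 to 20 depleted, the lone library being assumed to vary like the other group. The cause was not tested.

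Of the values of 34 named genes under the 10 other settings, 276 kept their direction and side of the threshold, 32 lost the call, 3 gained a call and 28 changed sign. With the trend taken out, and with trend and block, the log2 fold changes were -0.61 and -0.57 for Arid1a, -0.47 and -0.46 for Chd4, -0.43 and -0.44 for Crebbp, -0.55 and -0.54 for Ep300, -0.089 and -0.057 for Kdm1a, -0.48 and -0.47 for Kmt2b, -0.64 and -0.62 for Kmt2d, -0.38 and -0.36 for Smarca4, 0.41 and 0.32 for Smarce1-ps1 and -0.76 and -0.76 for Srcap. Library size alone, log2(FPKM + 0.1) and log2(FPKM + 1) gave 0.24, 0.18 and 0.15 for Kdm6b and 0.063, 0.055 and 0.017 for Kmt2a. At least 10 counts in every library gave -0.029 for Kdm1a and -0.020 for Srcap. Without a library the values ran from -0.14 to 0.63 for Arid1a, -2.26 to 0.90 for Arid4b, -1.54 to 0.44 for Chd1, -0.023 to 0.36 for Ep300, -0.052 to 0.15 for Kdm1a, -0.50 to 0.33 for Kdm6b, -0.59 to 0.19 for Kmt2a, -1.43 to 0.85 for Smarca5 and -0.058 to 0.25 for Srcap. The replicate block changed no call of these 34 genes by fold and unadjusted p, added Kdm7a (1.43) to the enriched members and moved the adjusted p of Ehmt1 to 0.0759. Depth limits Kdm4d, Setd4, Kdm5d and Smarce1-ps1, whose libraries held 0 to 46 counts each.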
